A study of Mus musculus with 23 samples.

Results

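The crosslink sites of CTCF were examined on the RNA of 9 mouse genes that encode nucleolar proteins. The members were Ncl, Npm1, Nop56, Nop58, Fbl, Dkc1, Nolc1, Utp20 and Rrp1b, taken by name out of 55413 annotated genes. A site belonged to a member when it lay on the gene's strand inside the gene body of GENCODE M21 (mm10). The members held 3116 of the 1346716 sites of 6 site lists.

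The nucleolus is the nuclear compartment in which ribosomal RNA is transcribed, modified and assembled into ribosomal subunits. Box C/D snoRNAs guide 2′-O-methylation by the methyltransferase Fbl, which works in a particle with Nop56 and Nop58. Box H/ACA snoRNAs guide pseudouridylation by Dkc1. In mammals most snoRNAs are cut out of introns of host genes, and several hosts encode the proteins that the snoRNAs work with. Ncl and Npm1 are abundant RNA-binding proteins that move between nucleolus, nucleoplasm and cytoplasm. Nolc1 is a scaffold that binds snoRNA particles, Utp20 belongs to the small subunit processome and Rrp1b takes part in large subunit assembly.

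The data were iCLIP2 libraries, in which UV light links a protein to RNA and reverse transcription stops beside the linked nucleotide. A CTCF-AID2 degron line of mouse E14 embryonic stem cells (ESCs) was used, as ESCs or after 2 days of differentiation toward neural progenitor cells (NPCs). In all groups, controls included, 1 µM 5-Ph-IAA removed the endogenous CTCF, and 1 µg/mL Dox for 24 hours switched on a rescue CTCF. The rescue protein carried a Flag tag, which was used for the immunoprecipitation from nuclei. It was wild type (WT) or carried a deletion in zinc finger 1 (ΔZF1), and each rescue line was 1 clone. The UV groups received 400 mJ/cm2 at 254 nm. They were ESC WT, ESC ΔZF1 and NPC ΔZF1 with 4 libraries each and NPC WT with 3. The non-crosslinked groups, ESC noXL and NPC noXL, had 4 libraries each and were both made from the WT rescue line.

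The authors merged the libraries of a group before calling sites, so each group is 1 list and no value has a replicate error. No test between conditions was possible. Ranges are 95% intervals from the counts (Wilson for shares and for ratios of counts, Poisson for densities) and cover counting error only. They take sites as independent, while some called sites lie side by side, so they can be too narrow. The lists held 107227 (NPC noXL) to 451137 (ESC WT) sites, and the read depth behind them is unknown. Of the ESC markers, Esrrb had 460 WT sites in ESCs and 0 in NPCs, and Tfcp2l1 had 343 and 5. The NPC marker Nes had 2 and 28 sites, while Sox1, Pax6, Hes5 and Zic1 held 0 in both WT lists. More RNA of a gene and more crosslinking per RNA molecule cannot be told apart in these counts.

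Every member held more sites in the WT list than in the noXL list of the same cell type. Below, 3 values of a cell type are in the order WT, ΔZF1, noXL. Summed over the members, there were 1051, 566 and 370 sites in ESCs and 566, 340 and 223 sites in NPCs. These numbers moved with the lengths of the lists. The ΔZF1 list was longer than the noXL list, at 231636 against 158968 sites in ESCs and 158490 against 107227 in NPCs. Near or equal counts of a gene in those lists are therefore not equal shares. For the ratios further below, counts were divided by the sites each list had in annotated genes.

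Of the shuttling and scaffold proteins, Ncl (chromosome 1, 86344719 to 86359400, minus strand) held 139, 78 and 54 sites in ESCs, then 83, 43 and 29 in NPCs. Npm1 (chromosome 11, 33152287 to 33163206, minus strand) held 113, 55 and 28 sites, then 75, 37 and 22. Nolc1 (chromosome 19, 46075863 to 46085530, plus strand) held 60, 25 and 23 sites, then 34, 25 and 15. The ΔZF1 count stood between WT and noXL for Ncl and Npm1 in both cell types, while for Nolc1 in ESCs it was close to the noXL count.

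Of the box C/D proteins, Nop58 (chromosome 1, 59684971 to 59719044, plus strand) held most sites of any member, with 279, 142 and 87 in ESCs, then 118, 74 and 70 in NPCs. Nop56 (chromosome 2, 130274430 to 130279313, plus strand) held 60, 27 and 20 sites, then 43, 17 and 15. Fbl (chromosome 7, 28169710 to 28179269, plus strand) held fewest, with 24, 16 and 10, then 19, 6 and 5. The NPC ΔZF1 counts of Nop56, Nop58 and Fbl each lay within 4 sites of the NPC noXL count.

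The pseudouridine synthase gene Dkc1 (chromosome X, 75095854 to 75109777, plus strand) held 66, 41 and 41 sites, so that the ESC ΔZF1 and noXL counts were equal, then 29, 20 and 12. Utp20 (chromosome 10, 88746607 to 88826804, minus strand), the longest member at 80.2 kb, held 199, 96 and 58 sites, then 107, 71 and 28. Rrp1b (chromosome 17, 32036100 to 32062865, plus strand) held 111, 86 and 49 sites, then 58, 47 and 27. Its ΔZF1 counts were 0.775 of WT in ESCs and 0.810 in NPCs, the highest of these ratios among the members in both cell types.

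**Figure D1:**
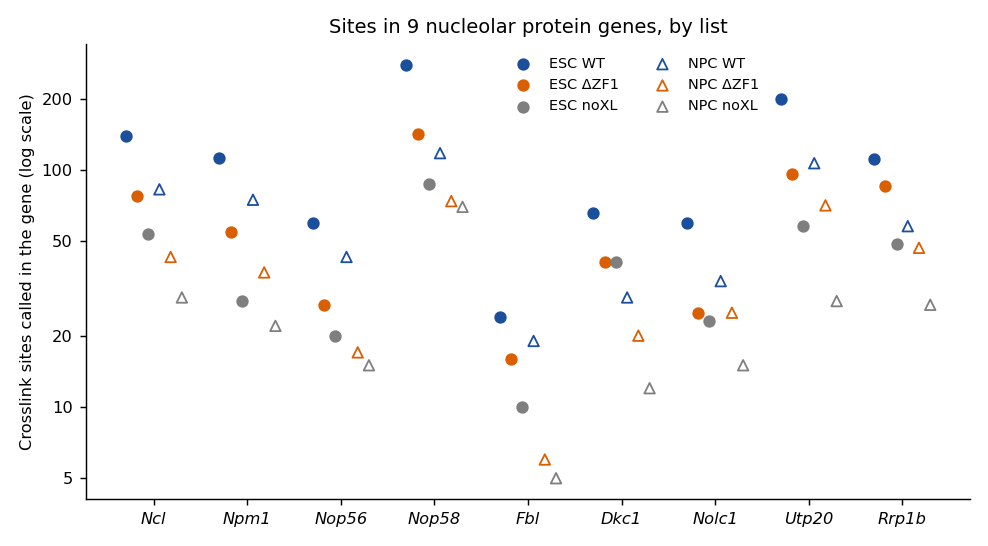
Sites called in each member gene (vertical axis, number of sites on a log scale), with ESC lists as filled circles and NPC lists as open triangles, and WT in blue, ΔZF1 in orange and noXL in grey. Each point is 1 merged list; the WT point is above the noXL point of the same cell type for all 9 members, from 279 against 87 sites for Nop58 in ESCs to 19 against 5 for Fbl in NPCs.

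Ratios between lists were taken as log2 of the site counts with a pseudocount of 1, divided by each list's sites in genes. A gene entered a comparison when the sum of its sites in that pair of lists reached 20. Values of 1 or more were called higher and values of -1 or less lower. All 9 members could be compared in the 5 comparisons and none was called in either direction. Over all genes, in ESC WT against ESC noXL 8.12% were called higher and 6.6% lower, and in NPC WT against NPC noXL 10.5% and 6.51%. In ESC ΔZF1 against ESC WT 6.84% were called higher and 5.45% lower, and in NPC ΔZF1 against NPC WT 5.76% and 7.36%. Between the WT lists, NPC against ESC, the shares were 11.5% and 10.4%. With 9 members, a share of this size comes to less than 1 or about 1 gene in each direction.

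The median scaled log2 ratio of the members was -0.16 in ESC WT against ESC noXL, beside 0.02 over 6208 genes, and 0.29 in NPC WT against NPC noXL, beside 0.03 over 4765 genes. For ΔZF1 against WT it was 0.01 in ESCs, beside 0.04 over 6518 genes, and -0.08 in NPCs, beside -0.04 over 5274 genes. For NPC WT against ESC WT it was 0.10, beside 0.04 over 6730 genes. Pooling the sites of the members gave scaled log2 ratios of -0.00 (-0.17 to 0.17), 0.17 (-0.05 to 0.39), 0.09 (-0.06 to 0.23), -0.15 (-0.34 to 0.05) and 0.01 (-0.14 to 0.15) in the same order. At the level of whole genes, with all sites counted, the members thus moved with the lists. A score minimum moved some of these values, as given with the alternatives below.

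Of the 45 member ratios, all within those limits, the intervals of 4 excluded 0. The share of all genes with such an interval was not computed, so nothing is read from that number. Dkc1 had the lowest scaled log2 ratio of ESC WT to ESC noXL, at -0.83 (-1.38 to -0.26), from 66 against 41 sites. Utp20 had the highest of NPC WT to NPC noXL, at 0.72 (0.16 to 1.36), from 107 against 28. Rrp1b had the highest of ESC ΔZF1 to ESC WT, at 0.61 (0.21 to 1.02), and in NPCs it was at 0.29 (-0.27 to 0.84). Nop58 was lowest in NPC WT against ESC WT, at -0.34 (-0.65 to -0.03), a value inside the middle 50% of all genes. Npm1 lies on chromosome 11, where the median scaled log2 ratio of ΔZF1 to WT was -0.47 over 607 genes in ESCs and -0.61 over 501 genes in NPCs; Npm1 itself stood at -0.05 (-0.52 to 0.40) and -0.41, with an interval that included 0 in both.

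**Figure D2:**
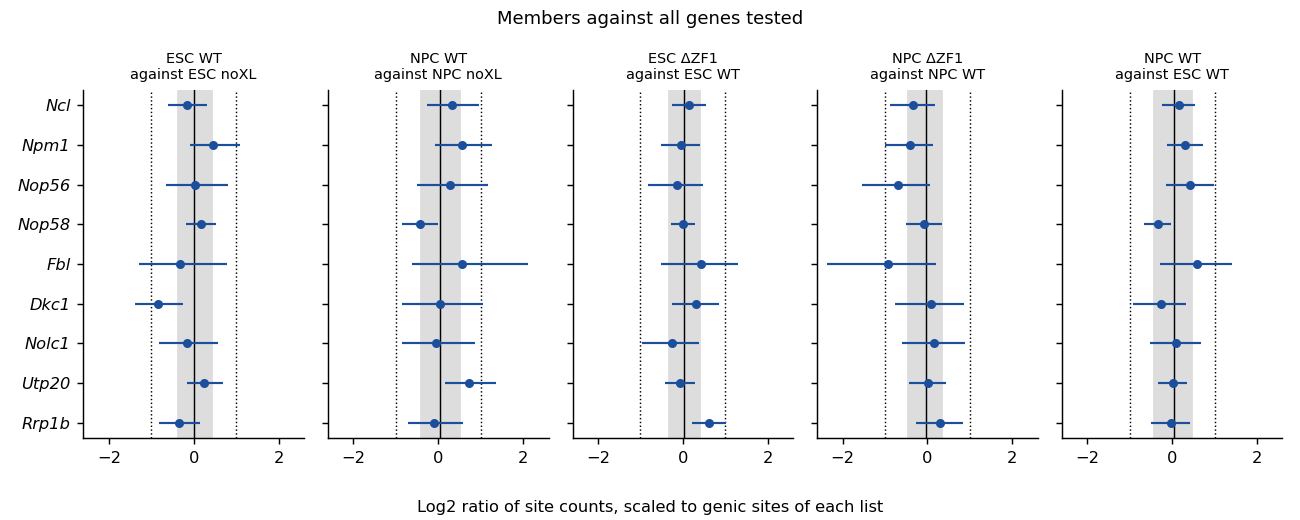
Scaled log2 ratio of site counts (horizontal axis) of each member in the 5 comparisons, with 95% intervals from the counts as bars. The grey band spans the middle 50% of all genes tested, the solid line is their median and the dotted lines are the limits of -1 and 1; every member's point lies between the dotted lines, the lowest being Fbl in NPC ΔZF1 against NPC WT at -0.93 (-2.36 to 0.21).

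The parts of a gene were then counted apart, with sites inside an annotated snoRNA kept separate and each remaining base called coding exon, untranslated region (UTR), exon of a non-coding isoform or intron. Exons of coding transcripts (coding parts and UTRs together) held 53.0% (49.97 to 56.0), 49.7% (45.5 to 53.8) and 47.8% (42.8 to 52.9) of the members' sites in ESCs. In NPCs they held 65.6% in WT (61.5 to 69.4), 170 of 340 sites in ΔZF1 and 50.7% in noXL (44.2 to 57.2). Over all coding genes the shares were 61.5, 63.0 and 54.5% in ESCs and 68.9, 55.5 and 52.5% in NPCs, so NPC WT had the highest exon share of the lists in the members and in all coding genes alike.

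Per kilobase, coding exons of the members held 6.21, 5.18 and 5.18 times as many sites as their introns in ESCs and 12.1, 5.79 and 5.03 times in NPCs, beside 19.5 to 41.5 times in the 6 lists over all coding genes. The all-gene values are summed sites over summed lengths of every coding gene, those without sites included. They are no like measure for members that all hold sites, and no difference is read from them. The members differed widely among themselves, and Utp20, the longest, stood at 24.3 times in ESC WT and 116 times in NPC WT. In ESC WT, Npm1 had 25.7 coding sites per kb (16.6 to 38.0) and 8.72 intron sites per kb (6.82 to 10.98), and Ncl had 8.96 (5.39 to 13.99) and 5.91 (3.86 to 8.66). Nolc1 had 21.2 (15.5 to 28.4) and 0.527 (0.109 to 1.54), and Utp20 had 17.3 (14.6 to 20.4) and 0.714 (0.530 to 0.942). Intron sites per kb in ESC WT were thus lower in Nolc1 and Utp20 than in Npm1 and Nop58 by more than their intervals, while their coding densities were 17.3 (Utp20) to 27.7 (Nop58) sites per kb.

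The coding exons of Ncl held 19, 4 and 3 sites in ESCs, then 22, 3 and 1 in NPCs. Those of Nop56 held 24, 5 and 2, then 24, 5 and 4. Those of Npm1 held 25, 10 and 2, then 18, 5 and 0. In the coding exons of Nop58 the counts were 45, 17 and 11 in ESCs and 24, 5 and 9 in NPCs, and in those of Fbl 16, 6 and 5, then 17, 5 and 4. Dkc1 had 30, 18 and 13, then 15, 12 and 6, and Nolc1 had 45, 19 and 19, then 21, 19 and 11. In all 9 members the WT coding count was above both other counts of its cell type, by as little as 31 against 30 in Rrp1b in ESCs, and the WT lists are also the longest of their cell type.

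Counts in coding exons were compared as above but scaled to all coding exon sites of each list, a comparison chosen after these values had been seen. The members past the limits reached the 20-site minimum mainly through their WT counts, so the calls describe the counts above and nothing is read from their number. In ESC ΔZF1 against ESC WT, Nop56 was called lower at -1.15 (-2.69 to -0.01) and Ncl at -1.09 (-2.82 to 0.15), 2 of 9 members. Of 4070 genes, 7.62% were called lower and 6.36% higher. For NPC ΔZF1 against NPC WT, Ncl was called lower at -1.61 (-3.61 to -0.31), and Nop56 and Nop58 both at -1.14 (-2.69 to -0.00), 3 of 9 members, beside 7.3% of 2617 genes lower and 4.93% higher.

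The median scaled log2 ratio of ΔZF1 to WT over the members was -0.33 in ESCs and -0.67 in NPCs. Of the members called in neither cell type, Npm1 stood at -0.33 in ESCs and -0.74 in NPCs. Fbl stood at -0.37 and -0.67, and Dkc1 at 0.21 and 0.62. In ESCs Nop58 was at -0.44 and Nolc1 at -0.29, and in NPCs Rrp1b was at -0.02. The remaining ratios were near or above 0. Coding sites of Utp20 numbered 145 in ESC WT and 73 in ESC ΔZF1, and 97 and 52 in NPCs, which gave scaled log2 ratios of -0.07 (-0.48 to 0.33) and 0.03 (-0.47 to 0.50). Rrp1b had 31 and 30 in ESCs, a scaled log2 ratio of 0.87 (0.15 to 1.58), and Nolc1 had 21 and 19 in NPCs, at 0.78 (-0.11 to 1.66). Pooled over the members, coding sites of ESC ΔZF1 were 0.479 of those of ESC WT (0.402 to 0.571), while the lists' coding sites stood at 0.531. In NPCs the values were 0.450 (0.362 to 0.560) and 0.529.

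In WT against noXL, Npm1 at 1.50 (0.10 to 3.96) and Nop56 at 1.45 (0.04 to 3.90) were called higher in ESCs, 2 of 9 members, beside 10.4% of genes called higher and 6.43% lower. In NPCs Ncl was called higher at 1.90 (0.29 to 5.39), 1 of 8 members tested, beside 10.9% higher and 10.1% lower. Here too the called members reached the 20-site minimum through their WT counts, and nothing is read from the number of calls. Npm1 had 18 coding sites in NPC WT and 0 in NPC noXL, under 20 together, and was not compared there. No member was called on coding sites between the WT lists of NPCs and ESCs, beside 6.7% of genes higher and 8.14% lower.

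Introns were then compared, also chosen after these values had been seen. Pooled over the members, 409 intron sites in ESC WT stood against 144 in NPC WT, a ratio of 0.352 (0.291 to 0.426), and the intron sites of all coding genes stood at 0.435. Coding sites numbered 380 and 260, a ratio of 0.684 (0.585 to 0.801), and those of all genes at 0.638. With each list's total of intron sites as the scale, the log2 ratio of NPC WT to ESC WT was -1.47 (-2.75 to -0.52) for Utp20 (7 against 50 sites), -0.71 for Rrp1b (11 against 44), -0.34 for Nop58 (65 against 191), 0.03 for Ncl (11 against 26) and 0.50 for Npm1 (44 against 72). Over 1957 genes, 24.1% lay at -1 or lower and 17.1% at 1 or higher. The other 4 members had under 20 intron sites in both lists together, with 1 against 18 for Dkc1. In the ΔZF1 lists the members' introns held 235 sites in ESCs and 135 in NPCs, and in noXL 151 and 89.

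On the same scale, intron log2 ratios of ΔZF1 to WT ran from -0.17 (Utp20, 21 against 50 sites) to 0.75 (Ncl, 21 against 26) in ESCs. In NPCs they ran from -0.63 (Npm1, 27 against 44) to 1.14 (Utp20, 16 against 7), where 14% of genes lay at 1 or higher and 12.7% at -1 or lower. The counting interval of that Utp20 value reached from just under 0 to 2.49, and its coding value was 0.03. For WT against noXL the ratios ran from -1.09 (Dkc1, 18 against 16) to 0.83 (Utp20, 50 against 11) in ESCs, where 10.3% of genes lay at -1 or lower and 7.39% at 1 or higher. The interval of the Dkc1 value was -2.04 to -0.13. In NPCs they were -0.04 for Nop58 and 0.64 for Npm1, the members with enough sites.

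**Figure D3:**
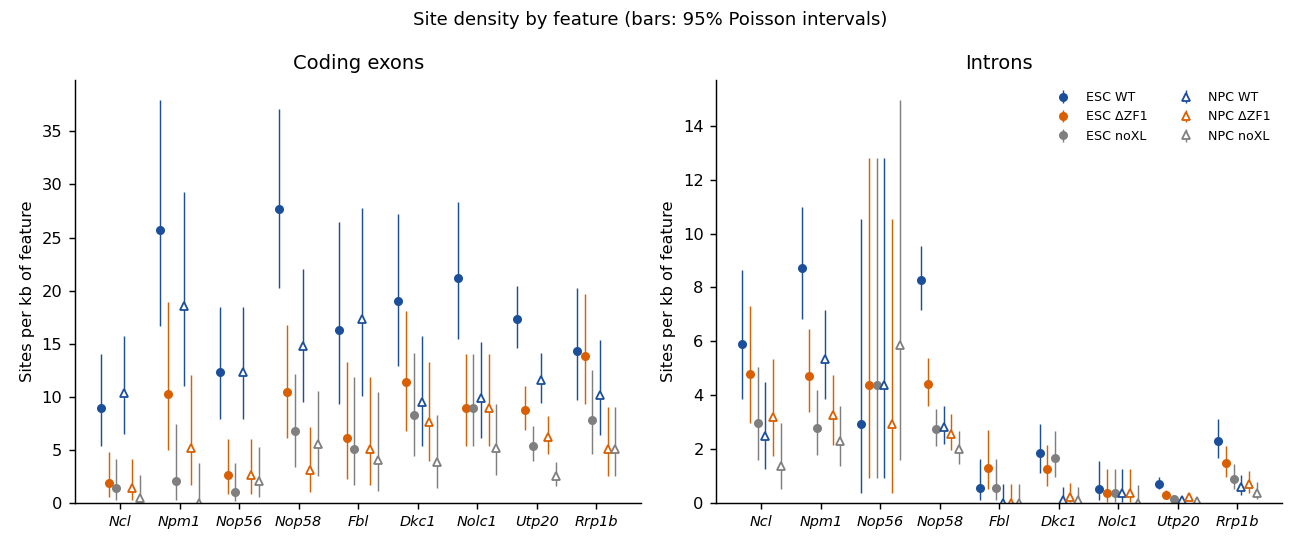
Sites per kb of coding exon (left) and of intron (right) for each member and list, with 95% Poisson intervals as bars; circles are ESC lists, triangles NPC lists, blue WT, orange ΔZF1 and grey noXL. In coding exons the WT point of every member stands above its ΔZF1 and noXL points of the same cell type, widely for Nop56 in NPCs (12.4 against 2.58 and 2.06) and narrowly for Rrp1b in ESCs (14.3 against 13.8 for ΔZF1), and the introns of Npm1 and Nop58 are the most densely covered in ESC WT, at 8.72 and 8.28.

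The strongest ESC WT coding site of each member shows the base at which WT sites were called. The windows below run 20 bases to each side of that site and are from the GRCm38 reference, in the direction of the RNA with T for U; capitals mark ESC WT sites.
Ncl, chr1:86355118-86355158, minus strand: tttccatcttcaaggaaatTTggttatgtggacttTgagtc
Npm1, chr11:33161108-33161148, minus strand: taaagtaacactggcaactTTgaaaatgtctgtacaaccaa
Nop56, chr2:130275647-130275687, plus strand: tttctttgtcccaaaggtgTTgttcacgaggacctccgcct
Utp20, chr10:88820856-88820896, minus strand: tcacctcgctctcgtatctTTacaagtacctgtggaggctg
Nop58, chr1:59710513-59710553, plus strand: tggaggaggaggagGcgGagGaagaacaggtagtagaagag
Fbl, chr7:28177251-28177291, plus strand: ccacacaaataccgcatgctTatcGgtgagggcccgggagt
Dkc1, chrX:75100978-75101018, plus strand: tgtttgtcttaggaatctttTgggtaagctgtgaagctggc
Nolc1, chr19:46078714-46078754, plus strand: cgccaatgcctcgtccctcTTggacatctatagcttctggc
Rrp1b, chr17:32055962-32056002, plus strand: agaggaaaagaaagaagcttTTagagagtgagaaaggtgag
The Ncl site scored 66.6, the Npm1 site 185, the Nop56 site 38.0, the Utp20 site 33.5 and the Nop58 site 33.3, where the median PureCLIP score of the list was 2.56. The other 4 scored 14.4 (Nolc1) to 24.1 (Rrp1b). All but the Nop58 site, which lies on guanine in a purine-rich stretch, lie on uridine, and those of Ncl, Npm1, Nop56, Utp20, Nolc1 and Rrp1b have a called uridine beside them. The Nop58 and Fbl sites had an ESC noXL site within 5 nt and the other 7 had none.

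Over all sites of the members, a uridine lay under 64.5% (61.6 to 67.4), 51.9% (47.8 to 56.0) and 29.2% (24.8 to 34.02) in ESCs. In NPCs it lay under 68.9% (64.97 to 72.6), 62.1% (56.8 to 67.1) and 33.6% (27.8 to 40.1). Uridine made up 24.7% (Nop56) to 33.0% (Npm1) of the bases of the gene bodies, so the noXL shares were near the base composition and the shares of the UV lists above it. The whole lists had 59.9, 48.6 and 28.3% in ESCs and 63.9, 58.5 and 27.9% in NPCs, the same order.

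WT exceeded ΔZF1 by 12.6 percentage points in ESCs (7.53 to 17.6) and by 6.85 in NPCs (0.489 to 13.3). Among the parts of a gene, this gap was computed for coding exons and introns only, and it was wider in coding exons. There the shares in ESCs were 61.3% (56.3 to 66.1), 39.6% (32.7 to 46.8) and 19.7% (13.5 to 27.8). In introns the shares were 68.5, 54.0 and 32.5%. Dkc1 had the widest gap between WT and ΔZF1 in ESCs, with 71.2% in WT (59.4 to 80.7), 34.2% in ΔZF1 and 26.8% in noXL. Fbl did not follow the order in ESCs, with 10 of 24, 5 of 16 and 4 of 10 sites on uridine, and in NPCs Fbl and Nolc1 had a higher share in ΔZF1 than in WT by less than their intervals.

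Sites in runs of uridine showed the same order. A site was the middle base of 3 uridines in 18.6, 11.5 and 3.78% of cases in ESCs and in 19.4, 14.4 and 2.24% in NPCs. At 5 nt after the site, the uridine share was 17.7 to 22.9% in the 6 lists.

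**Figure D4:**
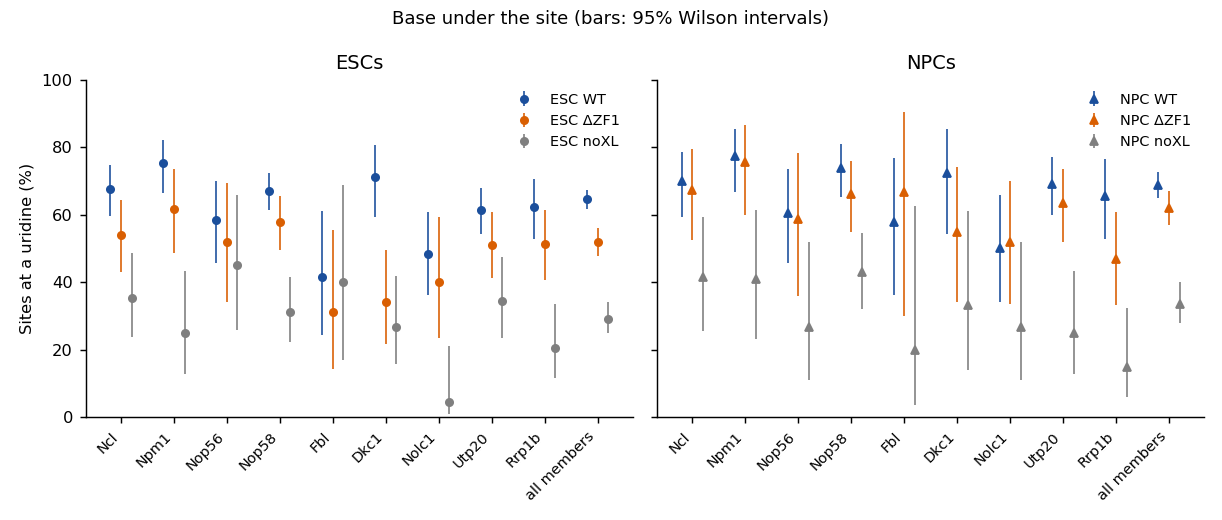
Percent of sites at a uridine for each member and for all members together, in ESCs (left, circles) and NPCs (right, triangles), with 95% Wilson intervals as bars; WT is blue, ΔZF1 orange and noXL grey. For all members the points are at 64.5, 51.9 and 29.2% in ESCs and at 68.9, 62.1 and 33.6% in NPCs, and the Fbl bars, from 5 to 24 sites, are wide.

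The sites with the highest scores lay elsewhere. Of 2677 distinct positions called in the members, 2402 were called in 1 list, 257 in 2 to 5 lists and 18 in all 6, including both lists made without UV. Of those 18, 17 lay within 10 nt of an annotated 5′ end, 12 at the 5′ end of a snoRNA and 5 at a transcript start. Of the 2402 positions called in 1 list 47 did so, of those in 2 to 5 lists 10.9%, and of all bases of the members 0.916%. In the whole series 1216 positions were called in all 6 lists and 48.5% of them lay within 10 nt of a 5′ end. In ESC WT the 18 positions stood between the 96.4th and 99.96th percentile of the list's scores. The site is by definition the base before the start of a read, and whether these positions mark crosslinks was not tested.

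The members host 13 annotated snoRNAs, 5 in Nop56, 4 in Nop58, 3 in Ncl and 1 in Dkc1. All but the Dkc1 snoRNA Gm25520 held sites inside or within 10 nt. The sequences below are snoRNAs with 10 bases on each side from GRCm38, as DNA letters in the direction of the RNA, and capitals mark positions called in all 6 lists. They are shown because each holds the strongest site of its host in some list or, for Snora75, the most sites inside a snoRNA body in ESC WT (6, beside 5 in Gm26287).
Snord57 in Nop56, chr2:130278006-130278097: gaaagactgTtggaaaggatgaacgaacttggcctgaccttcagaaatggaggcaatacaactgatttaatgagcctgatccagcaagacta
Gm23650 in Nop56, chr2:130277687-130277776: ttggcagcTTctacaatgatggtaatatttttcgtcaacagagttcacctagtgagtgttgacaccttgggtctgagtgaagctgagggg
Snord70 in Nop58, chr1:59691924-59692030: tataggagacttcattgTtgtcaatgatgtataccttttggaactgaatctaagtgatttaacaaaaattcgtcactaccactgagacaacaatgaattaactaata
Snord82 in Ncl, chr1:86356251-86356340: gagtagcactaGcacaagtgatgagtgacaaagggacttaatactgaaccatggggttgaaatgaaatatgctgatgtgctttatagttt
Gm24148 in Ncl, chr1:86351998-86352097: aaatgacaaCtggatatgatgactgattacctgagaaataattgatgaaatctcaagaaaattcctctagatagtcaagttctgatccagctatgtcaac
Snora75 in Ncl, chr1:86351159-86351311: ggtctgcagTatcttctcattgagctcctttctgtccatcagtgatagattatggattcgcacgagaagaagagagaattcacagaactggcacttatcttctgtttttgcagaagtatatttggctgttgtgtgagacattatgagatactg
Those of Nop56 and Nop58 lie on the plus strand and those of Ncl on the minus strand. The letters TGATGA, the core of the C box of box C/D snoRNAs, were found on the snoRNA's strand in 5 of the 12 snoRNAs with sites, counted whatever their class since the files give none for the Gm names, and in 26.3% of 1507 annotated snoRNAs with the same flanks.

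At Snord57 the base just before the annotated snoRNA, at 130278015, scored 608, 655 and 303 in ESCs and 311, 167 and 183 in NPCs. It was the highest-scoring site of Nop56 in the ESC lists and in NPC WT. At Gm23650 the base 2 before the snoRNA scored 320, 462 and 242, then 190, 230 and 232. The base just before Gm23650 scored 374, 475 and 22.59, then 196, 125 and 22.45. At Snord70 a base 7 after the first annotated base scored 428, 416 and 145, then 219, 140 and 108, the highest of Nop58 in all 6 lists. Both noXL lists thus hold a site at a score above 100 at each of these snoRNAs. Scores depend on depth and are set against other sites of the same list only.

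The main positions lay at few offsets. At Snora75, Gm24148, Snord110, Gm24451, Gm23650 and Snord57 the main position was offset -1 from the first annotated base. At Snord82, Gm23187 and Snord11 it was offset 1, at Gm26287 offset 2, and at Snord70 and Gm26293 offset 7. The main position was called in all 6 lists at 11 of these 12 snoRNAs and in the 4 UV lists at Gm23187, where scores ran from 90.4 in ESC WT to 13.1 in NPC ΔZF1. Inside its body the box H/ACA snoRNA Snora75 held 6 uridine sites between offsets 47 and 98 in ESC WT and 1 at offset 42 in NPC WT. Body sites were also called in a WT list in Gm26287 (offsets 18, 25, 26 and 28), Gm24451 (14 and 131), Snord57 (19) and Gm26293 (27), and in ESC noXL in Gm23187 (60).

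Sites inside snoRNAs numbered 29, 15 and 12 in ESCs and 20, 6 and 5 in NPCs, or 2.76, 2.65, 3.24, 3.53, 1.77 and 2.24% of the members' sites, with intervals that overlap throughout. Counting 10 nt beyond each end gave 41, 25 and 21, then 31, 13 and 12. Of the sites of the members with a score over 50, these snoRNA sites made up 25 of 54, 22 of 30 and 14 of 21 in ESCs and 17 of 36, 11 of 15 and 11 of 16 in NPCs. Because scores depend on depth, these counts are not compared between lists.

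**Figure D5:**
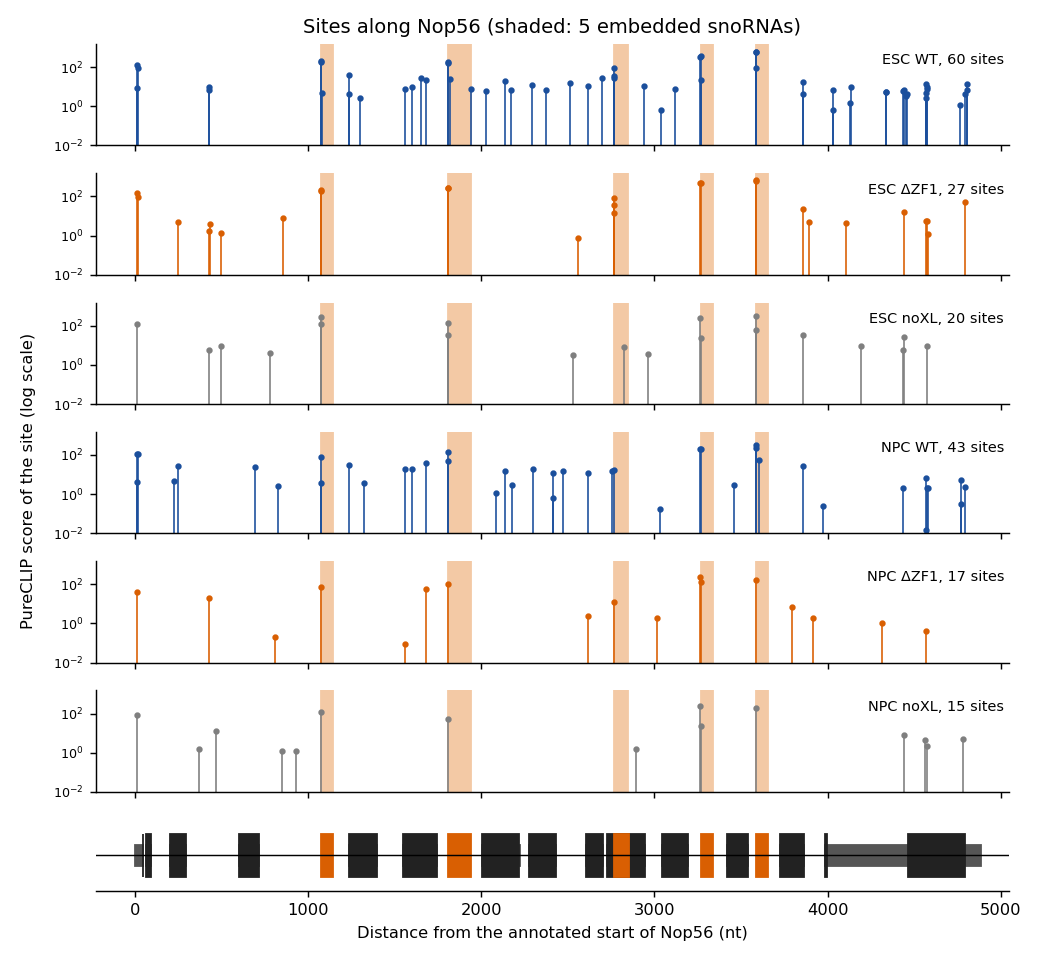
Sites along Nop56 by distance from its annotated start (horizontal axis, nt) with their PureCLIP score (vertical axis, log scale), 1 panel for each list; orange shading and boxes mark the 5 snoRNAs, black boxes coding exons and grey boxes UTRs. In every list, noXL included, the tallest sites stand at the left edges of snoRNAs (608 at Snord57 in ESC WT, 303 in ESC noXL), while the coding exons between them hold 24 sites in each WT list against 5, 2, 5 and 4 in the other lists.

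The other positions called in every list lay at transcript starts. The windows are 29 bases of GRCm38 around them in the direction of the RNA, with the positions in capitals.
Npm1, chr11:33163063-33163091, minus strand: gagcccgcgtcctTTccttggcgtgattc
Ncl, chr1:86359352-86359380, minus strand: ctcagtcttttgccTcagacgctagctgt
Nop56, chr2:130274430-130274458, plus strand: agagcgcgctagccGcattgcgagctggg
Rrp1b, chr17:32036392-32036420, plus strand: gccgcagcccatacGcagacgcagtccgg
At 33163078 in Npm1, the base before an annotated transcript start, the score was 590, 469 and 573 in ESCs and 512, 48.2 and 362 in NPCs. At 86359366 in Ncl it was 200.3, 159, 199.5, 236, 118 and 147. At 32036406 in Rrp1b it was 34.8, 27.5, 54.4, 39.9, 45.8 and 26.5. The Npm1 start held the highest score of that gene in every list, at either of the positions in capitals. The member position called in all 6 lists but far from a 5′ end was 32062715 in the 3′ UTR of Rrp1b, with scores of 6.96 to 43.7.

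Leaving out the positions called in all 6 lists, or all sites within 10 nt of a snoRNA, moved none of the pooled scaled ratios out of its interval. Lists shared part of their sites. Of the members' sites in NPC WT, 42.1% had an ESC WT site within 5 nt (38.1 to 46.2), and 40.2% when positions called in all 6 lists were left out. Over the whole NPC WT list the share was 29.3%. Of ESC ΔZF1 sites 28.8% lay within 5 nt of an ESC WT site (25.2 to 32.7), and of ESC noXL sites 25.4% (21.2 to 30.1). The corresponding shares of the whole lists were 25.7 and 17.3%, and a longer partner list gives a larger share.

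Coding sequences that resemble another locus can lose or gain reads at mapping, and how reads with several matches were treated is not given in the sources used here. The coding sequence of Npm1 matched 4 other places of the genome, and that of Fbl 1, over at least 80% of its length at 90% identity or more. The copies of Npm1 held 3, 0 and 0 sites in ESCs and 1, 2 and 0 in NPCs. The counts of Npm1 and Fbl are uncertain to that extent, and no such copy was found for the other members.

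The other genes of ribosome production were read from a list of 101 genes. In ESC WT against ESC noXL 88 had enough sites, with 3 called higher and 1 lower and a median scaled log2 ratio of 0.01. In NPC WT against NPC noXL it was 6 higher and 5 lower of 70, with a median of 0.06. In ΔZF1 against WT, 3 were higher and 3 lower of 93 in ESCs (median 0.05) and 1 higher and 6 lower of 76 in NPCs (median -0.06). Between the WT lists, 3 were higher and 5 lower of 93 in NPCs (median -0.13). These shares are under the background of all genes given above for the same comparison, except the 5 lower of 70 and the 6 lower of 76, which lie just above theirs of 6.51% and 7.36%.

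The ends of that list were named in each comparison. Rpf1, a large subunit assembly factor, was highest in ESC WT against noXL, with 21 sites against 0, and Rrp12 was lowest with 16 against 11, a scaled log2 ratio of -1.01. For NPC WT against noXL, Znhit6, a box C/D assembly factor, was highest at 1.47 (24 against 3 sites) and Noc3l lowest at -1.55 (9 against 12). In ESC ΔZF1 against WT, Surf6 was highest at 1.60 (19 against 12) and Nol11 lowest at -1.28 (24 against 119); Nol11 lies on chromosome 11. In NPC ΔZF1 against WT, Nvl was at 1.03 (59 against 43) and the processome gene Tbl3 at -2.74 (1 against 19). Between the WT lists, Rrp7a was at 1.51 (25 against 16) and Noc3l at -1.36 (9 against 47). Rpf1 and Tbl3 reached the site minimum mainly through their WT counts, and Noc3l in NPC WT against noXL was also near that minimum. The counts of Nol11 and Nvl were well above it. No intervals are given for these ratios, and nothing is read from which gene stood at an end.

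The genes whose scaled profile over the 6 lists was most like that of the members summed were Otud4, Slc12a2, Clptm1, Twsg1 and Rps7, at Euclidean distances of 0.146 to 0.173 on the log2 scale among 3861 genes with at least 100 sites. Of the members, Ncl was nearest to the sum at rank 8 (0.188) and Dkc1 farthest of those ranked, at rank 1671 (0.877), while Fbl had too few sites to be ranked. A profile near the members' sum is also one near the list totals, since the pooled ratios were close to 0.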

How the data were processed

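The authors used Flexbar for demultiplexing and trimming, STAR for alignment to mm10 and UMI-tools for deduplication, pooled the alignments of the libraries of a group and ran PureCLIP. The deposited files hold 1-nt sites with a PureCLIP score, a value without correction for depth. Tool versions are not given in the sources used here. Read depth is unknown.

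Sites (autosomes, X and Y) were assigned by strand to genes of GENCODE M21, with bases from GRCm38 (the build of mm10). Groups came from the sample labels. Ratios used a pseudocount of 1, genic sites per list as the scale, a minimum of 20 sites in both lists and limits of 1 and -1. Sharing allowed 5 nt. Members and lists were chosen with earlier results of these data known. Named were all members, the marker genes, the ends of the nucleolar list, the 5 nearest profiles and snoRNAs with sites. Alternatives changed scores, bases, scaling, pseudocount and site sets. Calculations were tested on simulated data. Copies were searched with minimap2. Python 3.11.15, numpy 2.4.6, pandas 2.3.3, pysam 0.24.0 and matplotlib 3.10.9 were used.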

Additional observations from a re-analysis of the deposited data

How the results depend on the processing

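No paired analysis was possible because sites exist only for merged libraries, and leaving out single libraries was likewise not possible. Of 63 alternatives of the pooled ratios other than no scaling, 53 stayed inside the interval of the reported value. Without scaling the pooled log2 ratios were 1.50 in ESC WT against noXL, 1.34 in NPC WT against noXL, -0.89 and -0.73 in ΔZF1 against WT in ESCs and NPCs, and -0.89 in NPC WT against ESC WT, which follow the list lengths. A score minimum of 3.02, the median over the lists together, gave 0.21 in ESC WT against noXL and -0.37 in NPC ΔZF1 against WT. Coding exon sites scaled to genic sites gave 0.18, 0.77, -0.079, -0.56 and 0.35 in the order of the comparisons (a choice made after seeing the data, as was the next). Intron sites gave -0.49 in NPC WT against noXL, 0.49 in NPC ΔZF1 against WT and -0.60 in NPC WT against ESC WT. Scaling outside chromosome 11, median-ratio scaling and a pseudocount of 0.5 left every pooled ratio inside its interval.

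The share of all genes past the limits was not computed under these alternatives, so nothing is read from the number of members past them. Counts of members past the limits went from 0 to 1 higher in ESC WT against noXL with the score minimum (Npm1) and with uridine sites (Nolc1), and to 1 higher in NPC WT against noXL with the score minimum (Utp20). In NPC ΔZF1 against WT they went from 0 to 2 lower with the score minimum (Npm1 and Nop56) and to 1 lower (Fbl) when sites near noXL sites were removed. On coding sites with uridine only, 2 members higher in ESC WT against noXL became 0, since Npm1 (19 against 0 sites, 1.38) and Nop56 (16 against 0, 1.15) had under 20 sites, and 1 was lower in NPC WT against noXL (Nop58). With the score minimum the member higher in NPC WT against noXL was Utp20 (45 against 8 sites, 1.01) in place of Ncl (17 against 1, under 20 sites). In ESC ΔZF1 against WT 1 was higher with the score minimum (Rrp1b), and 1 instead of 2 was lower with the score minimum (Nop56), with uridine sites (Dkc1, 3 against 23 sites, not among the reported 2) and without sites near noXL sites (Ncl). Ncl or Nop56 was then under 20 sites, both of them with uridine sites, at scaled log2 ratios of -1.03 or lower. In NPC ΔZF1 against WT, 3 lower became 2 with the score minimum (Ncl and Npm1) and 2 with uridine sites (Ncl and Nop58). Only Ncl, Npm1 and Utp20 had enough coding sites there with the score minimum, and only Ncl, Nop58 and Utp20 with uridine sites. With the score minimum Nop58 was at -0.90 (3 against 10 sites). Nop56 had under 20 sites in both settings, with 2 against 17 sites in each, at -2.03 with the score minimum and -1.44 with uridine sites.

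Exon shares with the exons of all transcripts were 59.8, 56.9 and 57.0% in ESCs (WT, ΔZF1, noXL) and 72.3, 59.1 and 58.3% in NPCs. Unweighted means over the members were 61.4% in ESC WT and, in NPCs, 72.1, 58.3 and 60.4%, and uridine sites gave 38.9% in ESC noXL and 41.3% in NPC noXL. Uridine shares were 69.0% in ESC WT and 72.8% in NPC WT without sites near noXL sites, 74.7% in NPC WT with the score minimum and 61.4% in ESC WT as an unweighted mean. Counts of snoRNA sites with 10 nt beyond the ends were 25 and 21 in the ESC ΔZF1 and noXL lists and 31, 13 and 12 in the NPC lists. Intervals cover counting error only, and a longer list gives narrower ones.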

Other observations

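Of 165 exons of 1 coding transcript per member, UTRs included, 146, 110 and 84 held a site in ESCs (WT, ΔZF1, noXL) and 132, 89 and 57 in NPCs. With each coding sequence cut into 3 parts of equal length, ESC WT had 141, 109 and 119 sites from the first to the last part and NPC WT had 99, 82 and 73, while ESC ΔZF1 had 63, 50 and 65 and NPC ΔZF1 36, 42 and 37. Of the pooled intron sites, 4.89, 7.23 and 7.95% in ESCs and 4.17, 5.19 and 6.74% in NPCs lay within 50 nt of an exon, and the members differed. Ncl, Npm1 and Nop56 had no such site in any list, and Nop58 had 3 of 191 in ESC WT. Utp20 had 12 of 50 in ESC WT, 10 of 21 in ESC ΔZF1 and 4 of 6 in NPC noXL, and Dkc1 had 5 of 16 in ESC noXL. The share of intron bases this close to an exon was not computed.

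The annotated 3′ UTR of Ncl is 5904 bases long and held 64 of 139, 35 of 78 and 25 of 54 Ncl sites in ESCs and 32 of 83, 16 of 43 and 15 of 29 in NPCs. In Rrp1b the 3′ UTR held 14, 22 and 6 sites, then 16, 11 and 7, with more sites in the ESC ΔZF1 list than in the longer ESC WT list. Between the lists made without UV, Dkc1 held 41 sites in ESCs and 12 in NPCs, a scaled log2 ratio of -1.13 (-2.12 to -0.30), past the limit of -1 and the lowest of the 8 members with enough sites, while 10.3% of genes lay lower.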
